A study of Homo sapiens with 2 samples.

Results

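Spliced long noncoding RNA (lncRNA) genes that carry small nucleolar RNAs (snoRNAs) in their introns were described, 10 in number: GAS5, SNHG1, SNHG5, SNHG6, SNHG7, SNHG8, SNHG12, SNHG16, ZFAS1 and EPB41L4A-AS1. They were taken by symbol from GENCODE 44, and all 10 were found among the 58735 Ensembl gene identifiers of both count tables. The study set a Nanopore direct RNA library, in which native RNA strands are read without copying to cDNA, beside an Illumina TruSeq stranded mRNA library of matched polyadenylated RNA. The Nanopore library was made with the SQK RNA01 kit and read on a MinION. Both came from MCF10a-Snail-ER cells, a line of the human mammary epithelial MCF10a cells that stably expresses the repressor Snail fused to the estrogen receptor. Both had 100 nM tamoxifen for 1 day, the treatment with which the submitters started the epithelial-to-mesenchymal transition. Neither library comes from untreated or parental cells, so the only comparison is between the 2 sequencing methods, with 1 library each.

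A snoRNA host gene is transcribed as one precursor. Splicing joins the exons into the lncRNA, and the excised introns are trimmed to snoRNAs that sit in ribonucleoproteins and guide chemical changes of ribosomal and spliceosomal RNA. Box C/D snoRNAs guide 2′-O-methylation with fibrillarin, and box H/ACA snoRNAs guide pseudouridylation with dyskerin. Many spliced host RNAs begin with a terminal oligopyrimidine stretch, are bound by ribosomes and are removed by nonsense-mediated decay. Mature snoRNAs have no poly(A) tail, whereas both library types here start from polyadenylated RNA.

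The table for Nanopore held 403235 counts and that for Illumina held 191741714, so 1 count was worth 2.48 CPM (counts scaled to a library total of 1000000) by Nanopore and 0.00522 CPM by Illumina. A gene with 0 Nanopore counts can still have a level of up to 7.44 CPM, the value of 3 counts. All 10 basal mammary markers were detected in both libraries, with summed levels of 9783 CPM by Nanopore and 11348 CPM by Illumina. Of the 6 luminal markers 5 were detected in each, with PGR at 0 in both, and the ESR1 row can include the construct. The 4 blood and 3 endothelial markers were at 0 by Nanopore. By Illumina, 2 of the 4 blood markers had counts (0.104 CPM in sum), as did all 3 endothelial ones (5.16 CPM, of which PECAM1 gave 5.07). With 1 library per method there is no replicate spread. Intervals and p-values therefore cover the counting error of this pair of libraries alone, and sequenced PCR copies are not independent molecules.

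The sequences that the counts turn on are of 2 kinds. The first is the snoRNAs in the introns of SNHG1 and ZFAS1, shown because these loci hold the most snoRNA counts by Nanopore and the Illumina library counted some of them and not others. Each is the GRCh38 reference on the gene's strand, 5′ to 3′, with the box C letters TGATGA (searched in the first 20 bases) and the box D letters CTGA (in the last 16 bases) in capitals. SNORD22 is the row ENSG00000277194, since 2 rows share that symbol. SNORD30 lies at chr11:62853663-62853732 (minus strand), SNORD22 at chr11:62852910-62853035 (minus), SNORD25 at chr11:62855564-62855632 (minus), SNORD12C at chr20:49278940-49279028 (plus), SNORD12B at chr20:49280319-49280409 (plus) and SNORD12 at chr20:49280683-49280772 (plus).
SNORD30: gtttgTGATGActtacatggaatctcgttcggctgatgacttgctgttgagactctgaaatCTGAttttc
SNORD22: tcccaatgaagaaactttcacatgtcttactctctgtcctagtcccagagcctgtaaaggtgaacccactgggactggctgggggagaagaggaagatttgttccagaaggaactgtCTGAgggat
SNORD25: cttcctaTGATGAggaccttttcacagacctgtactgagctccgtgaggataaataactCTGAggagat
SNORD12C: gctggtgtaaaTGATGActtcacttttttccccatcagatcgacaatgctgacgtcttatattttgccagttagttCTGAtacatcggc
SNORD12B: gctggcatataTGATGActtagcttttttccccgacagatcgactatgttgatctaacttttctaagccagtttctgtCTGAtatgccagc
SNORD12: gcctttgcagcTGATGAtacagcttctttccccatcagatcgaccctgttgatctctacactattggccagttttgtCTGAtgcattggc
Of the 15 SNORD genes of the host loci that were read, all 15 had CTGA in the last 16 bases and 8 also had TGATGA in the first 20. SNORD22 was among the 7 without TGATGA there, which says only that these letters are not in that window.

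The second kind is a pair of short genes that GENCODE classes as misc_RNA and that lie on the strand of ZFAS1 inside its exons. They are shown because their Nanopore counts came close to that of ZFAS1 itself. ENSG00000274760 covers 93 bases at chr20:49279116-49279208 (plus strand), all of them in an exon of the canonical ZFAS1 transcript. ENSG00000277967 covers 87 bases at chr20:49280485-49280571 (plus strand), of which 86 are canonical exon.
ENSG00000274760: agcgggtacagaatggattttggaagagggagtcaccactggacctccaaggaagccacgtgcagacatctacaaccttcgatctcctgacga
ENSG00000277967: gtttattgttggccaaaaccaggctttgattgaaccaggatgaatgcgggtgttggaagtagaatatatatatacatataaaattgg

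All 10 host lncRNAs were detected by both methods. Together they took 881 Nanopore counts, 0.218% of that library (95% Wilson interval 0.205 to 0.233), and 296679 Illumina counts, 0.155% of the other. As a share of the counts on lncRNA genes, 39860 by Nanopore and 4293598 by Illumina, they made up 2.21% in the first (interval 2.07 to 2.36) and 6.91% in the second (interval 6.89 to 6.93). The hosts were thus a larger share of all Nanopore counts and a smaller share of the lncRNA counts. That Nanopore lncRNA total includes lncRNA genes that overlap another gene, and most of those tested were higher by Nanopore (below).

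A direct RNA read stands for 1 RNA strand, so the Nanopore CPM can be set between genes without a length. SNHG5 was the highest host by Nanopore, at 627 CPM, and SNHG12 the lowest, at 12.4 CPM, a span of 50.6-fold. SNHG5 exceeded GAS5 by 1.35-fold (95% Clopper-Pearson interval 1.11 to 1.63), and GAS5 exceeded ZFAS1 by 1.45-fold (1.15 to 1.82). ZFAS1, SNHG6 and SNHG8 followed, and neighbours in that run did not differ beyond counting error. The next step was from SNHG8 to SNHG7, a ratio of 2.63 (lower bound 1.76). SNHG7, SNHG16, SNHG1 and EPB41L4A-AS1 again formed a run whose neighbours did not differ beyond counting error, and EPB41L4A-AS1 exceeded SNHG12 by 3-fold (1.04 to 10.6).

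Illumina counts grow with RNA length, so hosts were ordered there by TPM (counts per base of length, scaled to a library total of 1000000), which needs a length for each gene. With the mean length of a gene's annotated transcripts, GAS5 was the highest at 581 TPM. SNHG5 at 289, SNHG6 at 240, ZFAS1 at 194 and SNHG8 at 154 TPM came next. SNHG16 stood at 108 TPM and SNHG1 at 83.3 TPM, and SNHG12, SNHG7 and EPB41L4A-AS1 lay between 22.9 and 29.4 TPM. GAS5 came first with each of the 3 lengths used. Other places depended on the length. SNHG16 was the 2nd at 536 TPM with its canonical transcript of 498 bases and the 6th with its mean transcript length of 1923 bases. SNHG8 was the 5th with its mean transcript length of 930 bases and the 7th, at 29.9 TPM, with its canonical transcript of 6166 bases. Across the 10 hosts Spearman's rho between the Nanopore and the Illumina CPM was 0.830, as a description over 10 genes that share both libraries.

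**Figure D1:**
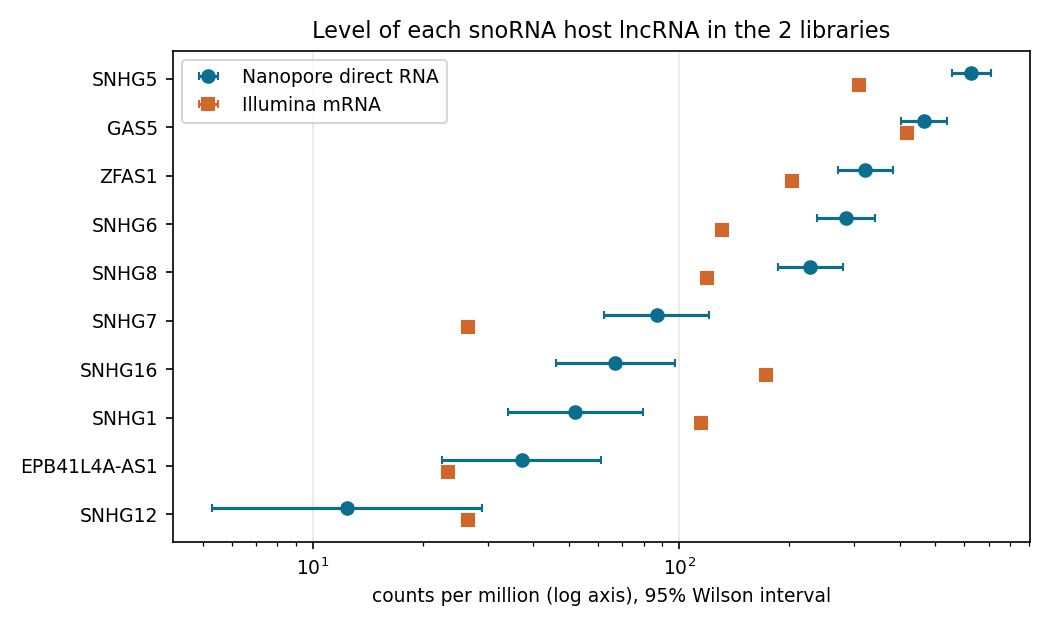
Level of each of the 10 snoRNA host lncRNAs in CPM (log axis), with 95% Wilson intervals that are narrower than the symbol for Illumina. Circles are the Nanopore and squares the Illumina library; SNHG7 has the widest gap towards Nanopore (86.8 against 26.5 CPM) and SNHG16 the widest towards Illumina (172 against 67.0 CPM).

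Between the libraries, the CPM of 7 hosts was higher by Nanopore and that of 3, SNHG1, SNHG12 and SNHG16, by Illumina. By an exact conditional binomial test, Benjamini-Hochberg adjusted over the 12414 genes that averaged 5 CPM or more, 5 hosts were higher by Nanopore at an adjusted p below 0.05, beside 20.2% of all genes tested. Those 5 were SNHG5, SNHG6, SNHG7, SNHG8 and ZFAS1. Another 2, SNHG1 and SNHG16, were higher by Illumina, or 20% of the 10, beside 27.2% of all genes tested. GAS5, SNHG12 and EPB41L4A-AS1 did not pass. Of the hosts that passed, 3 were at least 2-fold higher by Nanopore (background 17.7%) and 2 by Illumina (background 21.7%). The stricter rule of an adjusted p below 0.05 with a 4-fold difference on log2(CPM + 1) called 0 hosts higher by Nanopore, where it called 12.9% of all genes, and 0 higher by Illumina, where it called 7.31%. The median log2 ratio was 0.65 over the 10 hosts and -0.42 over all genes tested. Over the 1363 lncRNA genes tested the median was 2.95, and 73.2% were higher by Nanopore at an adjusted p below 0.05. It was 3.03 for the 1329 that overlap another gene, as all 10 hosts do, and 0.16 for the 34 that overlap none. A lncRNA gene could pass the 5 CPM filter through Nanopore alone, so these values are a description.

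Most of the hosts carry box C/D snoRNAs, and GAS5 is the best known of them. GAS5, the growth arrest-specific transcript named for its accumulation in arrested cells, lies at chr1:173858559-173868882 on the minus strand (ENSG00000234741). It had 188 Nanopore counts, or 466 CPM (404 to 538), and 80534 Illumina counts, or 420 CPM. The ratio of CPM was 1.11 (0.957 to 1.28), and the exact binomial test gave a Benjamini-Hochberg adjusted p of 0.263. Its direction rested on the length: per mean transcript length the Illumina level was the higher one, with a log2 ratio of -0.32 (exact binomial test, adjusted p = 0.00658), and per canonical length of 768 bases it was -0.86 (adjusted p = 2.00e-18). Per union exonic length of 4932 bases the Nanopore level was the higher one, at 1.01 (adjusted p = 9.16e-17). GENCODE lists 91 transcripts for this gene, the most of the 10, and 12 exons in the canonical one.

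SNHG5, a host of SNORD50 genes, lies at chr6:85650491-85678932 on the minus strand (ENSG00000203875). It had 253 Nanopore counts, or 627 CPM (555 to 710), and 59391 Illumina counts, or 310 CPM. Its Nanopore level was 2.03-fold higher (1.78 to 2.29), with an adjusted p of 2.05e-22 by the exact binomial test. ZFAS1, which hosts 3 SNORD12 genes and starts head to head with the zinc finger gene ZNFX1, lies at chr20:49278178-49299600 on the plus strand (ENSG00000177410). It had 130 Nanopore counts, or 322 CPM (272 to 383), and 39085 Illumina counts, or 204 CPM. The Nanopore level of ZFAS1 was 1.58-fold higher (1.32 to 1.88; exact binomial test, adjusted p = 7.21e-06). SNHG5 and ZFAS1 kept their direction and an adjusted p below 0.05 under all 10 alternative settings.

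SNHG6, the host of SNORD87, lies at chr8:66920561-66926398 on the minus strand (ENSG00000245910). It had 115 Nanopore counts, or 285 CPM (238 to 342), and 25094 Illumina counts, or 131 CPM. The ratio was 2.18 (1.80 to 2.62; exact binomial test, adjusted p = 1.73e-12). Per mean transcript length of 656 bases the log2 ratio of SNHG6 was 0.25 and the adjusted p 0.155, so that the call was lost there.

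SNHG1 and SNHG16 were the hosts that passed the test towards Illumina. SNHG1, whose introns hold 7 annotated box C/D snoRNAs of the U22 to U31 cluster, lies at chr11:62851978-62855953 on the minus strand (ENSG00000255717). It had 21 Nanopore counts, or 52.1 CPM (34.1 to 79.6), and 22058 Illumina counts, or 115 CPM. The Illumina level was 2.21-fold higher (1.44 to 3.57; exact binomial test, adjusted p = 0.000200). SNHG16, the host of the SNORD1 genes, lies at chr17:76557727-76670985 on the plus strand (ENSG00000163597), and at 113259 bases its annotated body was the longest of the 10. It had 27 Nanopore counts, or 67.0 CPM (46.0 to 97.4), and 33023 Illumina counts, or 172 CPM, a level 2.57-fold higher (1.77 to 3.90; exact binomial test, adjusted p = 7.15e-08). The SNHG16 call was lost per union exonic length (exact binomial test, adjusted p = 0.546). That for SNHG1 was lost per union exonic length (adjusted p = 0.125) and per mean transcript length (adjusted p = 0.0669).

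The remaining hosts carry box H/ACA snoRNAs. SNHG7, which hosts the SNORA17 genes, lies at chr9:136721366-136728184 on the minus strand (ENSG00000233016) and had the highest ratio of the 10. It had 35 Nanopore counts, or 86.8 CPM (62.4 to 121), and 5090 Illumina counts, or 26.5 CPM, a ratio of 3.27 (2.27 to 4.55; exact binomial test, adjusted p = 4.62e-08). SNHG8, the host of SNORA24, lies at chr4:118278703-118285316 on the plus strand (ENSG00000269893). It had 92 Nanopore counts, or 228 CPM (186 to 280), and 22826 Illumina counts, or 119 CPM, a ratio of 1.92 (1.54 to 2.35; exact binomial test, adjusted p = 1.45e-07). Both kept their direction and an adjusted p below 0.05 under all 10 alternative settings.

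EPB41L4A-AS1, the host of SNORA13, lies at chr5:112160526-112164818 on the plus strand (ENSG00000224032), opposite to EPB41L4A. It had 15 Nanopore counts, or 37.2 CPM (22.5 to 61.4), and 4486 Illumina counts, or 23.4 CPM, a ratio of 1.59 (0.889 to 2.63; exact binomial test, adjusted p = 0.192). SNHG12, which carries both classes, lies at chr1:28578538-28583132 on the minus strand (ENSG00000197989). It had 5 Nanopore counts, or 12.4 CPM (5.30 to 29.0), and 5092 Illumina counts, or 26.6 CPM, a ratio of 0.467 (0.152 to 1.09; exact binomial test, adjusted p = 0.156). The intervals of both genes include equality and also differences of over 2-fold, so a difference was not detectable at this depth. EPB41L4A-AS1 passed towards Nanopore per union length (exact binomial test, adjusted p = 0.00791) and per canonical length (adjusted p = 0.000265).

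**Figure D2:**
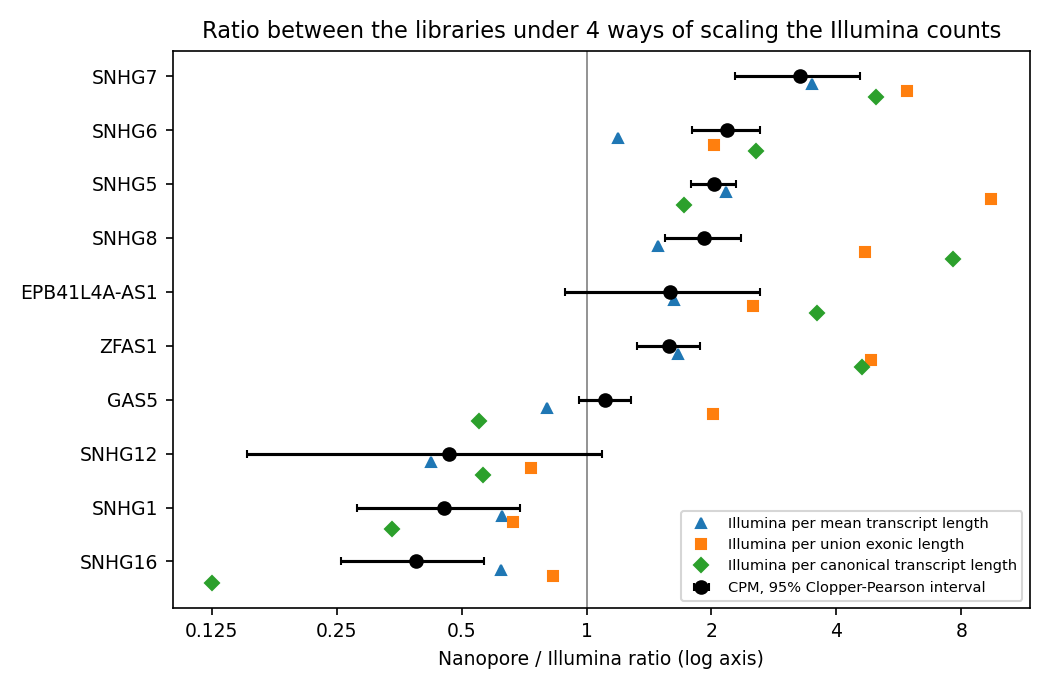
Nanopore to Illumina ratio of each host (log axis), as a ratio of CPM with its 95% Clopper-Pearson interval (circles) and with the Illumina counts scaled per mean transcript, union exonic or canonical transcript length (triangles, squares, diamonds). GAS5 is the only host whose ratio falls on both sides of 1, from 0.550 to 2.02; SNHG16 ranges from 0.125 to 0.829 and SNHG5 from 1.72 to 9.43.

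Gene length did not order the ratios in one way. The canonical transcripts ran from 498 to 6166 bases with 3 to 12 exons. The mean transcript lengths ran from 656 to 1923 bases and the union of all exons from 2527 to 12604 bases. Across the 10 hosts the rank correlation of the log2 CPM ratio was 0.50 with the canonical length, -0.36 with the mean transcript length and 0.13 with the union length, given as a description of 10 genes. When their canonical transcripts were aligned to the GRCh38 genome, 0 of the 10 hosts had a copy elsewhere that covered 80% of the transcript at no more than 5% divergence. Other transcripts were not aligned, so a copy of one much shorter than the canonical could not reach 80%. Partial matches were found for GAS5 on chromosome 6 (59.9% of the transcript, 2.82% divergence) and chromosome 15 (59.6%, 7.23%), and for SNHG16 on chromosome 9 (37.6%, 4.26%). The counting of reads that fit several places is not given in the sources used here.

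The snoRNA genes themselves were counted rarely. GENCODE 44 places 26 snoRNA genes, 69 to 137 bases long, inside 9 of the hosts. RefSeq places 37 in all 10, of which the 11 in GAS5 were not analysed here. All 26 lay in an intron of at least 1 host transcript, and 23 also lay in an exon of at least 1 annotated host transcript, so a count on them can come from a longer host RNA. Their counts summed to 32 by Nanopore and 825 by Illumina, equal to 3.63% and 0.278% of the counts of all 10 hosts. By Nanopore 13 of the 26 had a count, at most 6 each, and by Illumina 16 did. Only 5 had counts in both, 8 by Nanopore alone, 11 by Illumina alone and 2 in neither. These numbers count some snoRNAs in 2 rows on nearly the same bases: SNORA17B, SNORA16A, and SNORA17A with ENSG00000281808. All of those rows had Illumina counts and 0 by Nanopore, so they enlarge the Illumina side. Without snoRNA genes in an exon of another gene, which leaves those rows out, the sums were 32 and 740. A snoRNA at 0 by Nanopore can have up to 7.44 CPM, far above the Illumina levels of these genes, so the depth does not show that any of them is absent there.

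SNHG1 held most of the Nanopore counts on snoRNA genes. All 7 of its snoRNA genes had Nanopore counts, from 2 to 6 and 23 in sum, beside 21 on SNHG1 itself. By Illumina the 7 had 308 counts beside 22058. The snoRNA share of the counts on SNHG1 and its snoRNAs together was 52.3% by Nanopore (95% Wilson interval 37.9 to 66.2) and 1.38% by Illumina (1.23 to 1.54). SNORD30, the first of the printed sequences, had 2 Nanopore and 248 Illumina counts, and SNORD22 (ENSG00000277194) had 6 and 56. SNORD25, SNORD26, SNORD27 and SNORD28 had 3, 3, 3 and 2 Nanopore counts and 0 by Illumina. The second SNORD22 row, ENSG00000278527, had 4 counts in each. The 7 genes thus had like counts by Nanopore and counts that ran from 0 to 248 by Illumina. Whether 1 read was counted for the host and for several of its snoRNAs was not tested, since the files hold no reads. The shares and intervals here and at the other hosts take each count as a separate read. They hold only where no read was counted more than once.

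At the other hosts the snoRNA genes had at most 2 Nanopore counts each. SNORD50B in SNHG5 had 2 Nanopore counts and SNORD87 in SNHG6 had 1, and both were at 0 by Illumina. In ZFAS1, SNORD12B had 1 Nanopore and 146 Illumina counts, SNORD12C had 0 and 48, and SNORD12 had 2 and 0. The snoRNA share of the counts on ZFAS1 and its snoRNAs was 2.26% in the Nanopore library (0.770 to 6.42) and 0.494% in the Illumina one (0.429 to 0.568). The 3 printed SNORD12 sequences all hold both boxes. In SNHG12, the box C/D snoRNA SNORD99 had 0 and 114 counts and the H/ACA snoRNA SNORA61 had 2 and 85. The snoRNA share at SNHG12 was 28.6% by Nanopore (8.22 to 64.1), from 2 counts beside 5, and 3.85% by Illumina (3.37 to 4.40). In SNHG7, SNORA17A and ENSG00000281808, 2 rows on nearly the same bases, had 0 Nanopore and 32 Illumina counts each. The SNORA17B row ENSG00000280496 had 0 and 11. SNORD1B in SNHG16 had 0 Nanopore and 21 Illumina counts, and the share at that host was 3.57% by Nanopore (0.633 to 17.7), from 1 count on SNORD1C, and 0.0636% by Illumina (0.0416 to 0.0971). SNORA13 in EPB41L4A-AS1 had 0 and 15. SNORA24, the snoRNA of SNHG8, was at 0 in both libraries beside 92 and 22826 counts of its host.

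Several genes that overlap a host differed between the libraries by far more than the host did. Besides the snoRNAs, 21 other genes overlap 1 of the hosts, and 9 of them had at least 10 Nanopore counts, 6 of these on the opposite strand. Since these 9 were chosen for their Nanopore counts, their ratios are a description. The short genes inside ZFAS1, printed above, had 115 counts by Nanopore and 115 by Illumina (ENSG00000274760) and 116 and 73 (ENSG00000277967). Set against ZFAS1, with 130 and 39085 counts, that was 88.5% and 89.2% by Nanopore but 0.294% and 0.187% by Illumina. Their CPM ratios of 476 (364 to 621) and 756 (559 to 1027) stand beside 1.58 for ZFAS1. Another misc_RNA gene of the locus, ENSG00000277830, was at 0 in both. On the opposite strand ZNFX1 had 11 Nanopore and 6323 Illumina counts, a ratio of 0.827 (0.413 to 1.48).

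SNHG6 and GAS5 had opposite-strand partners of the same kind. MCMDC2, a gene of the minichromosome maintenance family, shares 1488 exonic bases with SNHG6. It had 113 Nanopore counts against 115 for SNHG6 (98.3%) and 126 Illumina counts against 25094 (0.502%), a CPM ratio of 426 (328 to 554). GAS5-AS1, an antisense lncRNA, shares 132 exonic bases with GAS5 transcripts and 0 with the canonical one. It had 131 Nanopore counts against 188 for GAS5 (69.7%) and 52 Illumina counts against 80534 (0.0646%), a ratio of 1198 (863 to 1685). By Illumina both partners thus lay under 1% of the host, and by Nanopore both lay within 2-fold of it.

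The pattern was not shared by every overlapping gene. ENSG00000271793, a protein-coding model on the strand of SNHG5 with 799 bases in its canonical exons, had 66 Nanopore and 4773 Illumina counts, or 26.1% and 8.04% of SNHG5. EPB41L4A, a FERM domain gene, had 16 and 2371, or 107% and 52.9% of EPB41L4A-AS1, with 2200 shared exonic bases. ENSG00000284526, opposite to SNHG16, had 17 and 21104, which was 63.0% and 63.9% of its host. DIPK1B shares 1094 canonical exonic bases with SNHG7 and had 0 Nanopore and 7 Illumina counts. PRSS12 shares 2487 with SNHG8 and had 5 and 4435, a CPM ratio of 0.536 (0.174 to 1.25). Whether the length of a shared exonic stretch goes with the Nanopore count was not tested. Whether the counting used strand, and whether 1 read could count for several genes, is not given in the sources used here. The counts of a host and of a gene that overlaps it thus cannot be told apart fully. All 93 bases of ENSG00000274760 are canonical ZFAS1 exon, so a read counted there also lies on ZFAS1. SNORA17A and ENSG00000281808, on nearly the same bases, both had 32 Illumina counts. The ratios of such genes are therefore not shown to be those of separate RNAs. The part of shared reads in these values was not tested.

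**Figure D3:**
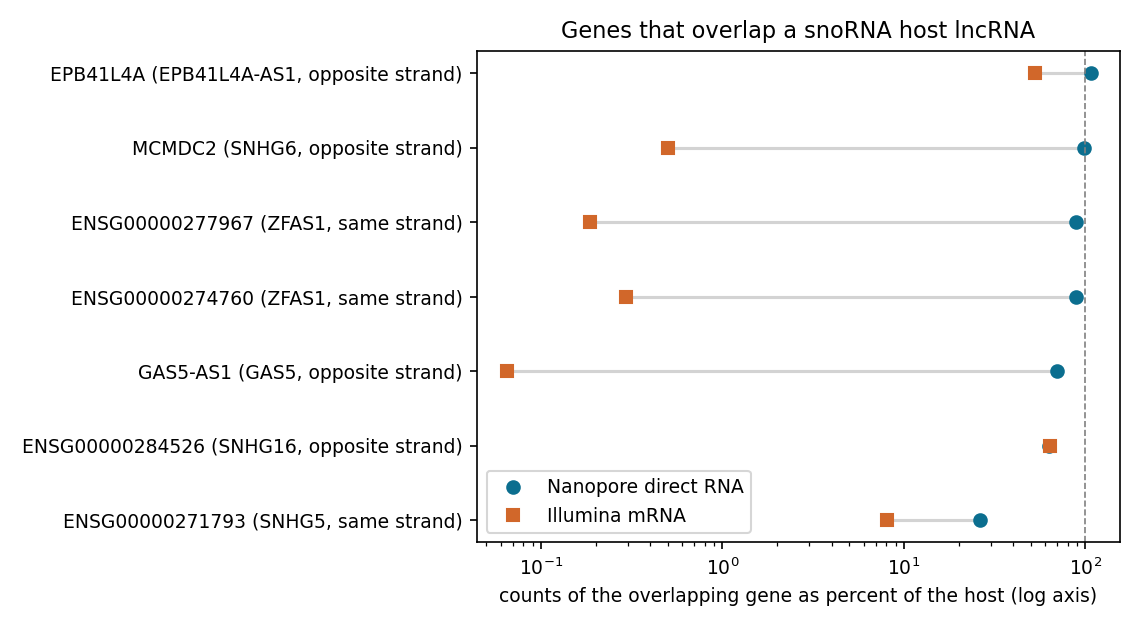
Counts of each overlapping gene with at least 10 Nanopore counts and at least 25% of its host's Nanopore counts, as a percent of the counts of its host in the same library (log axis), for Nanopore (circles) and Illumina (squares), with the dashed line at 100%. MCMDC2, GAS5-AS1 and the 2 short genes in ZFAS1 lie at 69.7% to 98.3% by Nanopore and at 0.0646% to 0.502% by Illumina.

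**Figure D4:**
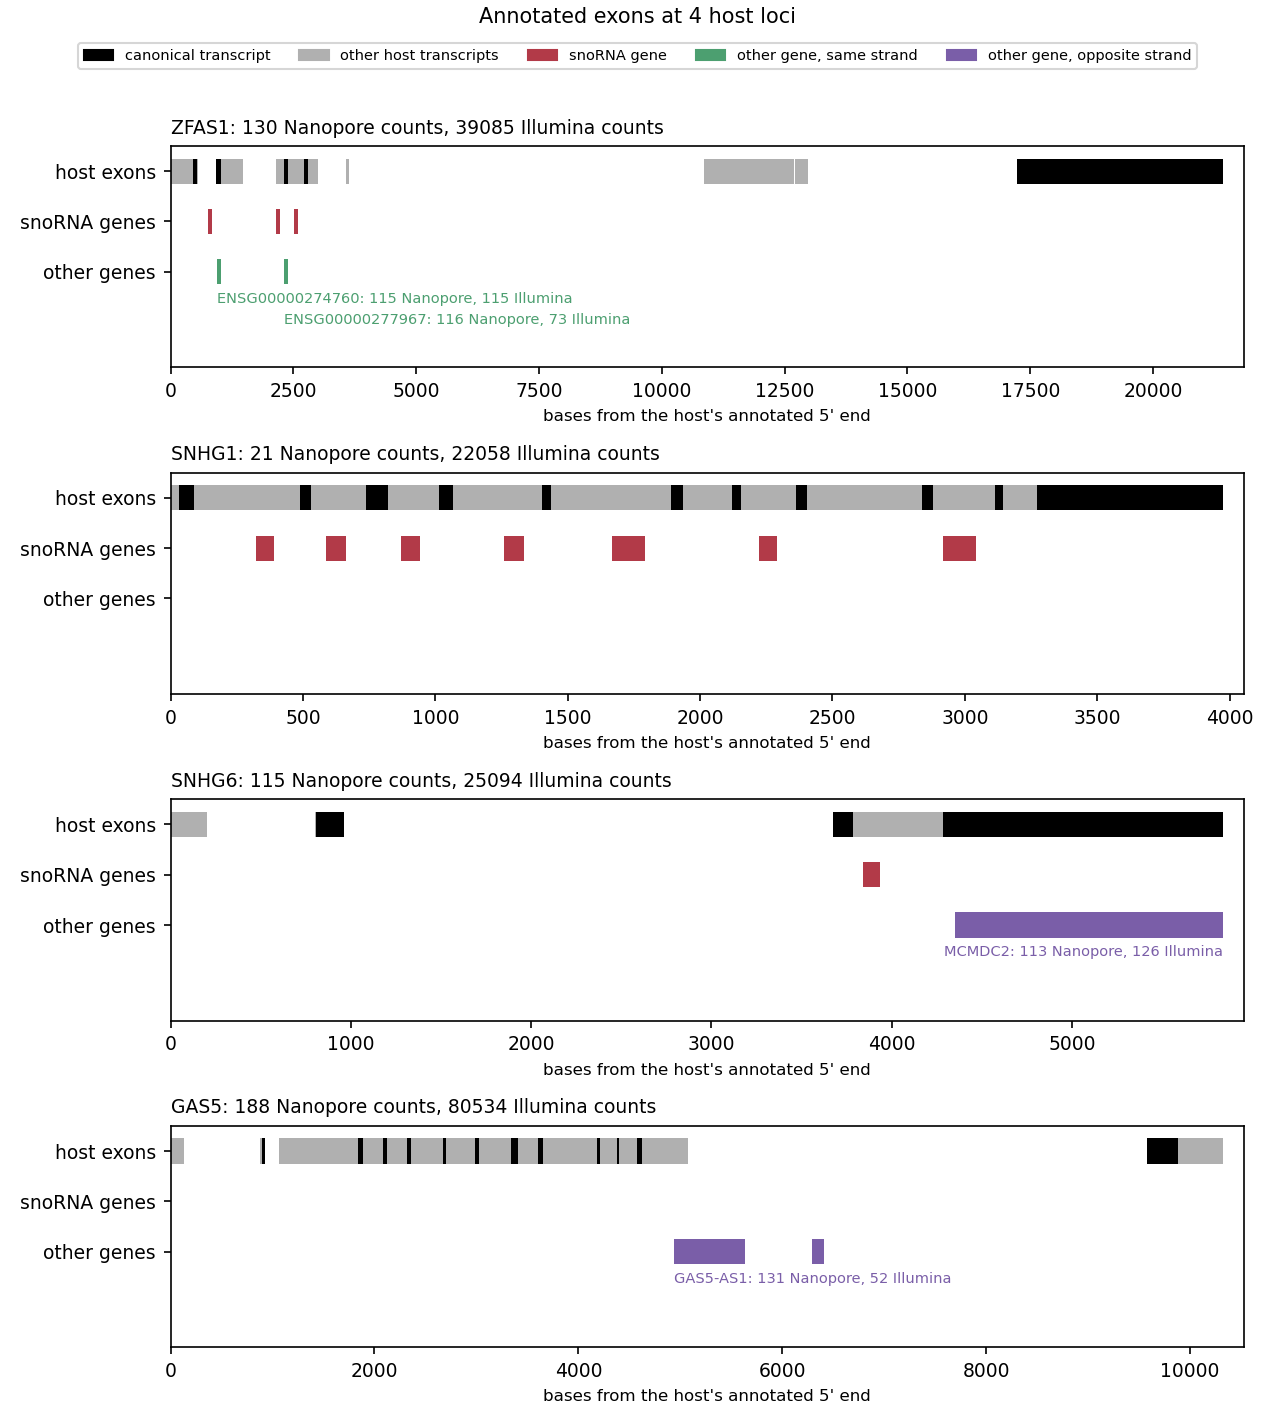
Annotated exons at ZFAS1, SNHG1, SNHG6 and GAS5, in bases from the host's annotated 5′ end: canonical exons in black, exons of other host transcripts in grey, snoRNA genes in red, same-strand genes in green and opposite-strand genes in purple, with counts of the overlapping genes, drawn where they reach 25% of the host's Nanopore counts. The 7 snoRNA genes of SNHG1 lie between its canonical exons, the 2 short ZFAS1 genes lie on canonical exons, and the GAS5 row of snoRNA genes is empty because its snoRNAs were not analysed here.

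Other genes of the pathway were read from lists. A gene could pass the filter of 5 CPM on average through 1 library alone, so the counts and medians describe the genes tested and not each list as a whole. Of 21 further snoRNA host lncRNAs in the tables, 14 were tested: 3 were higher by Nanopore at an adjusted p below 0.05, 3 by Illumina and 8 did not pass, with a median log2 ratio of -0.38. The background for such counts is 20.2% by Nanopore and 27.2% by Illumina. SNHG25 (1.81), SNHG19 (1.19) and SNHG14 (1.06) had the highest log2 ratios. SNHG17 (-2.41), SNHG9 (-2.25) and SNHG32 (-1.58) had the lowest, and SNHG17 and SNHG9 rested on 1 Nanopore count each. Protein-coding snoRNA hosts were taken by position: a snoRNA gene lies inside the body, on the same strand and outside the canonical exons. This rule does not show that the snoRNA is made from that gene. Of 249 such genes 189 were tested, and 32 were higher by Nanopore, 91 by Illumina and 66 did not pass. Their median was -0.69, beside -0.42 for all genes tested. Per union, canonical and mean transcript length it was 0.45, 0.23 and -0.21, where that of all genes was 0.42, 0.48 and 0.072. OVOL2 (4.50), ENSG00000271793 (2.67) and CEP295 (2.46) stood at the top, and PRRC2A (-4.33), DDX39B (-3.66) and VPS13D (-3.44) at the bottom. ENSG00000271793 is the gene that overlaps SNHG5, so 1 locus stands in both groups.

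The proteins that bind and assemble snoRNAs were read the same way. All 18 were tested: 2 were higher by Nanopore, 8 by Illumina and 8 did not pass, with a median log2 ratio of -0.70. Per union, canonical and mean transcript length it was -0.14, -0.64 and -0.78, where that of all genes was 0.42, 0.48 and 0.072. FBL, the methyltransferase fibrillarin of box C/D particles, stood at -2.36 with 44 counts by Nanopore and 108108 by Illumina. GAR1, a core protein of H/ACA particles, stood at -2.05 and ZNHIT6, a box C/D assembly factor, at -2.62. NAF1 (1.05) and RUVBL1 (0.61), both assembly factors, were the 2 that passed towards Nanopore, and NHP2, an H/ACA core protein, at 0.32 did not pass (exact binomial test, adjusted p = 0.0633). Of the 10 nonsense-mediated decay factors, 0 were higher by Nanopore, 8 were higher by Illumina and 2 did not pass, with a median of -1.98. For this list no median per length was computed, so how far it depends on RNA length was not tested. UPF2 (-2.90) and SMG5 (-2.41) had the lowest log2 ratios, and SMG8 (-0.94), UPF3A (-0.94) and SMG9 (-1.45) the highest. The lists were described by counts and medians, and no difference between them and the 10 hosts was tested.

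**Figure D5:**
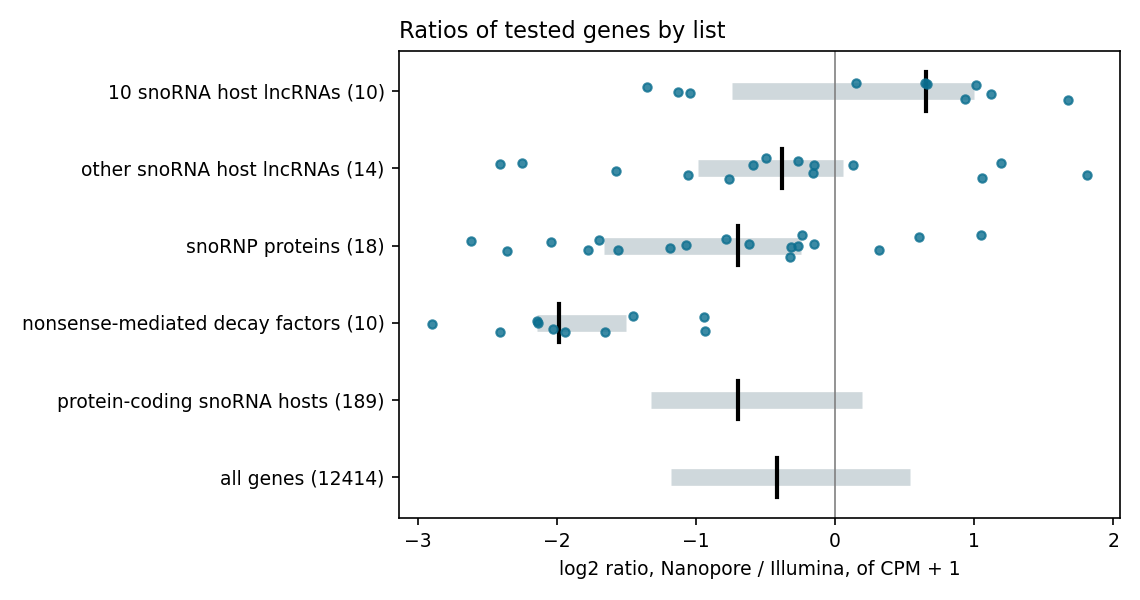
Log2 Nanopore to Illumina ratio of CPM + 1 for the tested genes of each list, with the number tested in brackets: grey bars span the quartiles, black lines mark the median and points are single genes, shown for lists of up to 18 genes. The 10 hosts have a median of 0.65, the other host lncRNAs -0.38, the decay factors -1.98 and all genes -0.42.

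The start sites of some of the hosts share letters that the choice of genes did not use. RefSeq promoters on GRCh38.p14 were at hand for 9 of the 10, all but SNHG6. The letters TATAA, searched in the 50 bases before the start, were found on the gene's strand in 5 of 9: SNHG5, SNHG7, SNHG8, SNHG12 and ZFAS1, at 28 to 34 bases before the start. Of all 35116 RefSeq promoters 4.74% hold them on the gene's strand, 2.63% on the other strand and 6.08% on either. A run of at least 5 C or T letters that covers the start, the base composition of a terminal oligopyrimidine stretch, was found in 6 of 9 hosts and in 9.60% of all promoters. For GAS5 the stretch around the RefSeq start (chr1:173868996-173869095, minus) lies upstream of the GENCODE gene body, which ends at 173868882. That GAS5 had neither match thus refers to that start alone. At SNHG12 and ZFAS1, which had both matches, the RefSeq start lies inside the GENCODE gene body and not at its 5′ end. Their matches likewise refer to the RefSeq start. The promoters of 4 hosts are printed, 50 bases before to 50 after the start and 5′ to 3′ on the gene's strand with TATAA in capitals. SNHG5 (chr6:85678684-85678783, minus) and SNHG7 (chr9:136728135-136728234, minus) were higher by Nanopore, and SNHG1 (chr11:62855836-62855935, minus) and SNHG16 (chr17:76557714-76557813, plus) were higher by Illumina.
SNHG5: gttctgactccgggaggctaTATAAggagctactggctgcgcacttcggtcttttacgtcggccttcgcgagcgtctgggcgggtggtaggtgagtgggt
SNHG7: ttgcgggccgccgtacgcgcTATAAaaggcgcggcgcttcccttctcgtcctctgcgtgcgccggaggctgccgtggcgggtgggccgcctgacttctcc
SNHG1: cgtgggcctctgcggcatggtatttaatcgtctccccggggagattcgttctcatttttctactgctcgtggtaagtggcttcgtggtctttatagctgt
SNHG16: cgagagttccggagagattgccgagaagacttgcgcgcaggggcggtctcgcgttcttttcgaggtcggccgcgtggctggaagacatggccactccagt
A match is a description of these letters, not a site in use. Of the other hosts with TATAA, SNHG8 and ZFAS1 were higher by Nanopore, and SNHG12, with a CPM ratio of 0.467, did not pass the test. Whether the promoter letters go with the ratio between the libraries was not tested.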

How the data were processed

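The authors deposited 2 tables of whole-number counts per Ensembl gene, 1 per library, without normalization. The submitters' processing notes name minimap2 2.11-r797, HISAT2 2.1.0, featureCounts and the build hg38. The options, the annotation release and the treatment of strand, overlapping genes and multiply placed reads are not given in the sources used here. Of 58735 identifiers, 58207 were found in GENCODE 44, which gave symbols, exons and lengths. From the deposited counts, CPM used the table totals and log2 ratios a pseudocount of 1 CPM. Each gene that averaged 5 CPM or more had its pair of counts compared by an exact conditional binomial test, given both totals (two-sided, Benjamini-Hochberg adjusted, threshold 0.05), with 95% Clopper-Pearson intervals. With 1 library per method no negative binomial model was fitted. The tests were checked on simulated data that held counting error alone, with no difference of method, length or overlap. There the 4-fold rule called 100 of 100 genes raised 8-fold and 81 of 100 lowered 8-fold. Alternatives were 2 other pseudocounts, TMM scaling (edgeR 4.0.16, R 4.3.3), median-ratio scaling, totals without mitochondrial genes, Illumina TPM with 3 lengths, other filters, a 2-fold rule, a background without overlapping genes and a narrower set of snoRNA genes. Transcripts were aligned with minimap2 2.31, and scripts ran in Python 3.11.15 with SciPy 1.17.1. snoRNA sequences are the GRCh38 reference, and promoters are from RefSeq (GRCh38.p14). Genes named are the 10 hosts, snoRNA genes inside them with at least 10 counts in either library, overlapping genes with at least 10 Nanopore counts, and the 3 highest and 3 lowest ratios of each list. Some genes that this rule covers are not reported here. Other snoRNA and overlapping genes were added after their values were seen. The members and lists were chosen with earlier results of these data known.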

Additional observations from a re-analysis of the deposited data

How the results depend on the processing

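Of 99 values of single hosts under other settings, 89 kept their direction and their side of the 4-fold rule, 8 passed it newly and 2 reversed. Both reversals were GAS5, at -0.32 (log2) per mean transcript length and -0.86 per canonical length. Under the 4-fold rule the count of hosts higher by Nanopore went from 0 to 4 per union exonic length and 3 per canonical length. Of all genes tested, 15.1% and 15.6% were called so in these settings. With 2-fold in its place the count was 3, beside 17.7% of all genes. The count higher by Illumina went from 0 to 1 per canonical length (2.53% of all genes) and 2 with 2-fold (21.7%). By adjusted p alone, 0 were higher by Illumina per union length, beside 10.6% of all genes. The hosts' median was 1.15 per union, 1.06 per canonical and 0.41 per mean transcript length, where that of all genes was 0.42, 0.48 and 0.072. The protein-coding hosts' median reversed to 0.45 per union length and 0.23 per canonical length, and was -0.21 per mean transcript length. That of the snoRNP proteins was -0.14 per union, -0.64 per canonical and -0.78 per mean transcript length. The settings per length divide the Illumina counts by a length and then rescale them to a library total, which shifts every ratio. They also tested 12350 genes, where the main setting tested 12414. The part of each in these changes was not tested, and no further cause was tested. Median-ratio scaling shifted every ratio by 0.13 and gave GAS5 an adjusted p of 0.0281 (exact binomial test). SNHG12 was not tested with a mean of at least 20 CPM. No paired analysis was possible because each method has 1 library. Depth limits the Nanopore values: 5 counts for SNHG12 and 15 for EPB41L4A-AS1 leave intervals that include equality.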
